A study of Mus musculus with 20 samples.

Results

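The genes described here are 8 markers of mucous neck cells and of spasmolytic polypeptide-expressing metaplasia (SPEM) in the stomach: Tff2, Muc6, Clu, Wfdc2, Glipr1, Cd44, Aqp5 and Cftr. They were taken by symbol from a table of read counts for 24047 genes, and all 8 were among the 13476 genes that passed a filter on low counts. The counts came from RNA sequencing of 20 libraries of mouse gastric organoids, epithelial cultures grown in conditioned medium, from 8 lines of BL/6 strain. Lines 794 and 801 were labelled p53 knockout (KO) and dysplastic, with the KO made in vivo and 3 libraries each. Lines 650 and 1270 were labelled KO without dysplasia, the KO having been made in vivo in line 650 and ex vivo in line 1270, with 2 libraries each. Lines 565 and 752 were wild type (WT) and dysplastic with 3 libraries each, and lines 300 and 1269 were WT and non-dysplastic with 2 libraries each. The labels name neither the stomach region of origin, nor the driver of the knockout, nor whether any lines share an animal. A p-value therefore reflects the spread between these lines alone, which may be technical.

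Mucous neck cells lie in the gastric glands and secrete gland mucus, whose gel-forming mucin is Muc6 and whose trefoil peptide is Tff2, also called spasmolytic polypeptide. In mice, chief cells descend from neck cells, and after loss of parietal cells chief cells can take on neck cell genes again, the state named SPEM. The other 6 genes are used as markers of SPEM or of mucous gland cells in mice: Clu encodes a secreted chaperone, Wfdc2 a secreted WAP-domain protein, Glipr1 a protein of the CAP family that has been described as p53-responsive in mouse cells, Cd44 a hyaluronan receptor, Aqp5 a water channel and Cftr a chloride and bicarbonate channel.

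None of the 8 genes passed the test between KO and WT lines or between dysplastic and non-dysplastic lines, while several differed many-fold from line to line. Tff2 spanned 75.1-fold between the highest and the lowest line, Cftr 20.6-fold, Glipr1 15.4-fold and Aqp5 10.9-fold. Line 794, KO and dysplastic, held the highest level of 5 of the genes, Muc6, Wfdc2, Cd44, Aqp5 and Cftr, and the lowest level of Glipr1. Tff2 followed another order, being lowest in the non-dysplastic lines 1269 (WT) and 1270 (KO).

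Library totals ran from 5669521 to 16323270 counts, and line totals, after summing the libraries of a line, from 22217126 to 36880593. Levels are given as CPM, read counts scaled to a common library size after TMM normalization, and those of a line are from its summed counts. In the check of the labels, Trp53 lay between 4.44 and 33.0 CPM in KO libraries, against 98 to 165 CPM in WT libraries. Even for this gene, at a log2 fold change of -3.17 ± 0.60 (SE), edgeR's adjusted p over the 8 lines was 0.74. The last-numbered libraries of 6 lines (794, 801, 565, 752, 650 and 300) stood apart from their sister libraries by a shift with transcript length, described below. Epithelial genes were high in every line, with Epcam, Cdh1, Krt8, Krt18 and Cldn18 summing to between 8043 and 10106 CPM. Immune markers summed to at most 1.82 CPM, endothelial markers to at most 3.26 CPM and fibroblast markers to at most 34.3 CPM, the last in line 650. Of the proton pump subunits that define parietal cells, Atp4b was at 0 in every line and Atp4a between 0.67 and 1.86 CPM. The 5 parietal markers, these and Kcne2, Slc26a7 and Aqp4, summed to between 4.32 CPM (line 794) and 424 CPM (line 1269, of which Aqp4 was 423 CPM). In these bulk samples, fewer cells of a type and less RNA per cell cannot be told apart.

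The bases before the transcription start are shown for the 5 genes that were highest in line 794, since these peaked in the same line. RefSeq promoter windows of assembly GRCm38.p6 matched 5 of the 8 genes, and these were the same 5. This assembly differs from mm9, the build in the submitters' processing notes, and only the 250 bases upstream of each start are given, 5′ to 3′ on the gene's strand. Capitals mark matches, on either strand, to any of 6 motifs searched: TATAAA, a core promoter box; GGGCGG, a box bound by Sp factors; TGANTCA, bound by Fos and Jun factors; AGATAA, bound by zinc-finger factors such as Gata4; TGTTTAC, bound by forkhead factors; and the p53 half-site. The windows are Muc6, chr7:141655394-141655643, minus strand; Cd44, chr2:102901666-102901915, minus strand; Wfdc2, chr2:164562465-164562714, plus strand; Aqp5, chr15:99590778-99591027, plus strand; and Cftr, chr6:18170437-18170686, plus strand.
Muc6: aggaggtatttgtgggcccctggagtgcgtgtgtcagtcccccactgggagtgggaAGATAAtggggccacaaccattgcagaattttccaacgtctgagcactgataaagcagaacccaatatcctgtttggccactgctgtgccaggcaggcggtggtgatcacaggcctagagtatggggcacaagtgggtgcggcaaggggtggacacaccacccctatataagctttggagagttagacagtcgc
Cd44: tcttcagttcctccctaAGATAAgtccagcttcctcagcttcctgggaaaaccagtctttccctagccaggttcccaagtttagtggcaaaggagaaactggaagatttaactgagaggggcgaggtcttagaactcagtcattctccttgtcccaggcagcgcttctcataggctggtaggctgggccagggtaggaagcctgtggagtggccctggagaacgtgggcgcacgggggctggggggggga
Wfdc2: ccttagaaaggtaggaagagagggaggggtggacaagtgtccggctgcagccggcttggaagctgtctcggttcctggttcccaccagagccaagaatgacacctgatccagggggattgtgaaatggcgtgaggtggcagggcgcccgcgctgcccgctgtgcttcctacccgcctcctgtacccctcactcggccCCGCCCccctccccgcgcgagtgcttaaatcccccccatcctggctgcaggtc
Aqp5: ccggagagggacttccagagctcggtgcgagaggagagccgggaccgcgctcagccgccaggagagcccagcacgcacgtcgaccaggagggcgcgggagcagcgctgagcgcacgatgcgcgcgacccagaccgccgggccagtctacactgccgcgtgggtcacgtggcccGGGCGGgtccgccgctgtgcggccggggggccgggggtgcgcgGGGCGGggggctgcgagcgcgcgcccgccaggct
Cftr: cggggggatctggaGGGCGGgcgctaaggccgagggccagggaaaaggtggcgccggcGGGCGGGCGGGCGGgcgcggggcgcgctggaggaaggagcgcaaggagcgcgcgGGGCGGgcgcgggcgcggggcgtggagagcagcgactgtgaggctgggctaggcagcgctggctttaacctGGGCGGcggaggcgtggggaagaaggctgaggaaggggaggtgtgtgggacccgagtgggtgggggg

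The 5 windows held no motif in common. AGATAA occurred once each in the Muc6 window, starting at base -194 from the start site, and in the Cd44 window at -233, and 10.3% of 27025 RefSeq promoter windows held it. GGGCGG occurred 1 time in the Wfdc2 window, at -53, 2 times in the Aqp5 window, at -77 and -34, and 6 times, in part overlapping, in the Cftr window, against 32.9% of all windows with at least 1 match. TATAAA (in 12.97% of all windows), TGANTCA (6.87%), TGTTTAC (3.09%) and the p53 half-site (7.18%) had no match in these 5. The search for TATAAA took these exact letters, so it passed over near forms such as TATATAAG close to the end of the Muc6 window. The Aqp5 and Cftr windows were 78.4% and 76.4% G and C, those of Wfdc2, Cd44 and Muc6 64.8%, 56.4% and 55.2%, and the median window 52%. A match of letters is a description and shows no binding.

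Tff2, the trefoil peptide of neck cells, measured 587, 121, 998 and 42.4 CPM in KO lines 794, 801, 650 and 1270, against 210, 831, 1127 and 15.0 CPM in WT lines 565, 752, 300 and 1269. High and low lines stood in each genotype and, among the non-dysplastic lines, at both ends of the order. Lines 300 and 650, the highest in Tff2, held 0.57 and 0.65 CPM of Xist, and lines 1269 and 1270, the lowest, 448 and 672 CPM. The dysplastic lines lay between these in Tff2 and held 317 to 658 CPM of Xist. The part of Xist in the Tff2 levels was not tested. Neighbouring lines overlapped in their libraries in 6 of the 7 steps, and the exception was the step between line 801 (88.4 to 198 CPM) and line 1270 (10.6 to 83.0 CPM). Sister libraries of a line also differed, with 224, 381 and 1442 CPM in line 794, and 83.0 and 10.6 CPM in line 1270. With the 6 libraries that stood apart left out, line 794 measured 306 CPM and the span over lines was 55.5-fold. On the log2(CPM + 1) scale the SD of Tff2 over lines was 2.28, and 0.104% of tested genes varied at least as much, the median SD over all tested genes being 0.23.

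Muc6, the gland mucin, measured 257, 139, 66.7 and 80.5 CPM in KO lines 794, 801, 650 and 1270, against 173, 83.5, 143 and 97.7 CPM in WT lines 565, 752, 300 and 1269. Its span over lines was 3.85-fold, and every line overlapped in its libraries with the next in order, so that no neighbours were separated. Line 1270, low in Tff2, and line 650, high in Tff2, held the lowest Muc6 levels, so the neck cell mucin and the trefoil peptide did not keep the same order. Of 8 other trefoil and mucin genes tested, none passed edgeR's test in any of the 7 comparisons; since 0.0% of all tested genes did, this and the like counts of other gene lists below tell nothing of the lists themselves. Muc1, a membrane mucin and the highest of these, lay between 1179 CPM (line 794) and 2115 CPM (line 752). Muc5ac, the mucin of surface pit cells, was at 457 CPM in line 794, 187 CPM in line 1270 and at most 8.51 CPM in the other lines. The 2 libraries of line 1270 were uneven in Muc5ac, the higher holding 421 CPM.

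Clu, the secreted chaperone, was the most abundant of the 8 per length and the steadiest. Divided by the length of the longest coding transcript, its level over the 8 lines averaged 6658 ± 1649 CPM per kb (SD, n = 8), followed by Wfdc2 at 1244 ± 684, Tff2 at 841 ± 774, Aqp5 at 131 ± 125, Glipr1 at 126 ± 73.2, Cd44 at 45.7 ± 19.5, Muc6 at 14.8 ± 7.19 and Cftr at 12.0 ± 18.1 CPM per kb. In KO lines 794, 801, 650 and 1270 Clu measured 11908, 14326, 11006 and 7397 CPM, against 16456, 12190, 14253 and 8867 CPM in WT lines 565, 752, 300 and 1269. Line 565 lay above all other lines in each of its 3 libraries, as did 0.0816% of tested genes, while the libraries of line 1270 stood far apart at 11052 and 4612 CPM. The span was 2.22-fold, and 23.2% of tested genes varied at least as much over lines.

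Wfdc2 measured 2405, 922, 1004 and 467 CPM in KO lines 794, 801, 650 and 1270, against 845, 973, 1120 and 713 CPM in WT lines 565, 752, 300 and 1269. The 6 middle and lower lines from 300 down to 1269 overlapped with each neighbour, and line 794 led them with 1658, 1473 and 4897 CPM in its libraries, the lowest of these values lying within the range of line 300 (731 and 1519 CPM). The library at 4897 CPM is among the 6 that stood apart, and without them line 794 measured 1604 CPM, the next line being line 752 at 776 CPM. Line 1270 was lowest, both its libraries (437 and 502 CPM) lying below every other library, as for 3.59% of tested genes.

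Glipr1 measured 19.7, 143, 168 and 55.2 CPM in KO lines 794, 801, 650 and 1270, against 199, 165, 136 and 303 CPM in WT lines 565, 752, 300 and 1269. The 2 lowest lines were KO lines, but the other 2 KO lines lay within the range of the WT lines. In line 794 the libraries held 17.1, 9.44 and 38.2 CPM, all below the lowest library of any other line, 50.6 CPM in line 1270. Of 7 tested relatives with a WAP or CAP domain, none passed edgeR's test in any comparison. Glipr2, a relative of Glipr1 and the highest of these, was likewise lowest in line 794, at 6.29 CPM against 24.0 to 34.3 CPM in the other 7 lines.

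Cd44, the hyaluronan receptor, measured 444, 330, 204 and 87.1 CPM in KO lines 794, 801, 650 and 1270, against 294, 219, 171 and 302 CPM in WT lines 565, 752, 300 and 1269. Gene counts do not resolve its splice variants, of which variants with extra exons are the ones used as SPEM markers. Line 1270 was lowest, with 99.7 and 78.9 CPM, below every library of the other lines, as for 3.59% of tested genes. In the list of hyaluronan, Cd44 ligand and splicing genes, 0 of 8 tested genes passed edgeR's test in any comparison. The splicing factors Esrp1 (240 to 283 CPM over lines) and Esrp2 (108 to 145 CPM) and the ligand Spp1 (1486 to 2347 CPM) kept within narrow ranges. Slc7a11, a cystine transporter that binds a Cd44 variant, was at 268 CPM in line 794 and between 59.1 and 99.0 CPM in the other lines.

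Aqp5, the water channel, measured 763, 158, 70.0 and 121 CPM in KO lines 794, 801, 650 and 1270, against 317, 110, 182 and 163 CPM in WT lines 565, 752, 300 and 1269. Lines 794 and 565 were separated from each other and from all lines below them, and the 6 lower lines overlapped with their neighbours. The libraries of line 794 held 1027, 640 and 542 CPM, above every other library, the highest of which was at 366 CPM. Of 5 other aquaporins tested, 0 passed edgeR's test in any comparison. Aqp4, a water channel of parietal cells in the normal stomach, was lowest in line 794, at 2.17 CPM, and highest in line 1269, at 423 CPM.

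Cftr, the chloride channel, measured 356, 33.7, 17.3 and 21.8 CPM in KO lines 794, 801, 650 and 1270, against 61.5, 28.4, 35.6 and 53.3 CPM in WT lines 565, 752, 300 and 1269. Line 794 alone was separated from the others, and the remaining lines overlapped with each neighbour. Its libraries held 404, 437 and 173 CPM, and the highest library of any other line held 71.0 CPM. Of 9 other genes of epithelial chloride and bicarbonate transport, 0 passed edgeR's test in any comparison. The chloride channel Ano1 was at 271 CPM in line 794 and 313 to 416 CPM in the other lines, and the sodium-potassium-chloride cotransporter Slc12a2 at 411 CPM in line 794 and 231 to 384 CPM in the others. Slc26a9, of the same list and chosen after its values were seen, was at 139.5 CPM in line 794 and 28.7 to 63.3 CPM in the others.

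**Figure D1:**
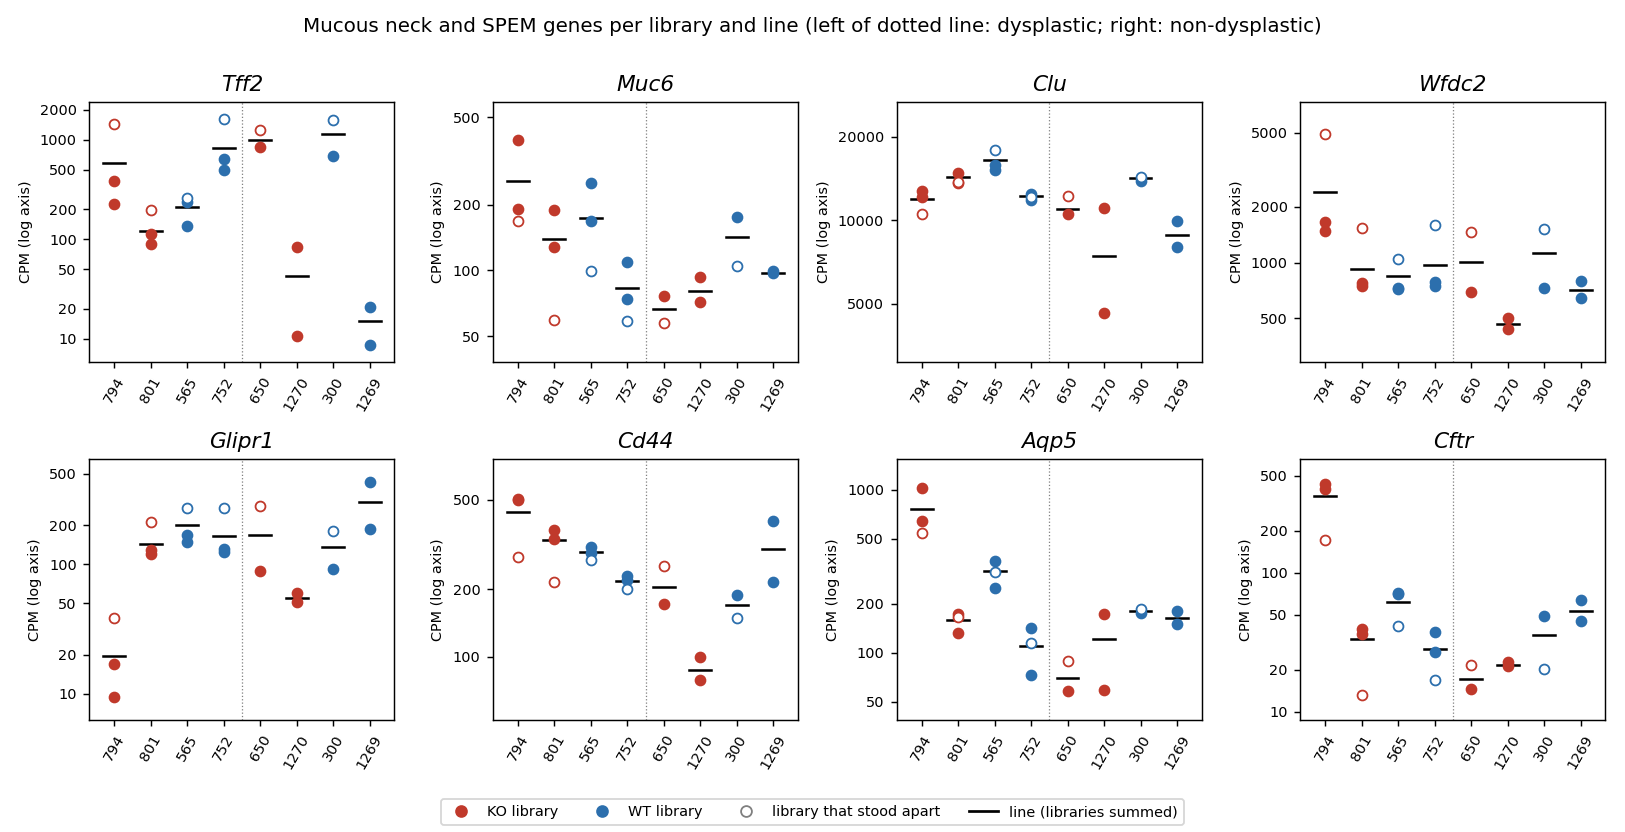
Level of each gene in CPM (log axis) for each organoid line; circles are libraries, open circles the 6 libraries that stood apart, bars the summed line, red KO and blue WT, with dysplastic lines left of the dotted line. Line 794 is highest for Muc6, Wfdc2, Cd44, Aqp5 and Cftr and lowest for Glipr1, while Tff2 is lowest in lines 1269 and 1270.

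KO and WT lines were compared over all 8 lines as the mean of the differences within the dysplastic and the non-dysplastic lines. Of the 8 genes, 0 passed edgeR's quasi-likelihood test at an adjusted p under 0.05, and 0.0% of all tested genes did, the adjusted p being 1 for each of the 8. At an unadjusted p under 0.05 edgeR also gave 0 of the 8, where 4.03% of all genes stood. DESeq2 called 0 of the 8 and 73 genes (0.542%) in all, and limma-voom 0 of the 8 and 63 genes (0.497%) in all. Glipr1 averaged 96.6 ± 70.6 CPM over the KO lines, against 201 ± 72.7 CPM over the WT lines (mean ± SD of 4 lines each). Its log2 fold change was -1.06 ± 0.65 (SE), and leaving out 1 line at a time it ran from -2.08 (without line 801) to -0.65 (without line 794). Tff2 averaged 437 ± 445 CPM over the KO lines, against 546 ± 521 CPM over the WT lines, with a log2 fold change of -0.33 ± 1.34, so that its SE alone exceeded a 2-fold change. Those of the other 6 genes lay between -0.22 ± 0.24 (Clu) and 0.47 ± 0.66 (Cftr), and the sign for Wfdc2, Aqp5 and Cftr turned negative without line 794. Only Cftr turned with that line alone. Wfdc2 also turned without line 650 (-0.048), and Aqp5 without line 1270 (-0.083) and without line 752 (-0.15). Muc6 and Cd44 each changed sign in 4 of the fits that left out 1 line. The median over the 8 genes was -0.039, and over all tested genes -0.0058. No gene separated the 4 KO from the 4 WT lines in either direction, which 0.861% of all genes did as higher and 1.51% as lower in KO lines.

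Within the dysplasia classes, where 2 lines stand against 2, the order of KO and WT lines differed. Among non-dysplastic lines, Muc6, Aqp5 and Cftr lay lower in both KO lines than in both WT lines (10.5% of all genes did), none lay higher (9.28% did), and the median log2 fold change of the 8 genes was -0.70. Among dysplastic lines, Cd44 lay higher in both KO lines, 444 and 330 CPM against 294 and 219 CPM in WT lines (17.9% of all genes did), and Glipr1 lower (19.2% did), the median being 0.63. These orders are of summed lines. Of these genes only Muc6 kept its libraries apart as well. Cd44 libraries reached down to 216 CPM in line 801, below those of line 565 (270 to 307 CPM). Glipr1 libraries held 120 to 212 CPM in line 801 and 125 to 272 CPM in line 752. None of the 8 passed edgeR's test in either class, where again 0.0% of all genes did, with all adjusted p at 1. At an unadjusted p under 0.05 edgeR also gave 0 of the 8 in either class, against 1.91% of all genes among non-dysplastic and 4.36% among dysplastic lines. DESeq2 and limma-voom called none of the 8 either, with 0.0445% and 0.0395% of all genes called among non-dysplastic lines and 0.522% and 0.813% among dysplastic lines.

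Dysplastic and non-dysplastic lines were compared as the mean of the differences within KO and within WT lines. The 6 genes Muc6, Clu, Wfdc2, Cd44, Aqp5 and Cftr had higher mean levels in dysplastic lines, but 0 of the 8 passed edgeR's test (0.0% of all genes), with adjusted p from 0.82 to 1.00. Cftr averaged 120 ± 158 CPM over the dysplastic lines, against 31.99 ± 16.2 CPM over the non-dysplastic lines (mean ± SD of 4 lines each), and its log2 fold change was 1.67 ± 0.67 (SE). Aqp5 averaged 337 ± 298 CPM over dysplastic lines, against 134 ± 49.6 CPM over non-dysplastic lines, a log2 difference of 1.29 ± 0.55. Muc6 averaged 163 ± 72.4 CPM over dysplastic lines, against 96.9 ± 33.1 CPM over non-dysplastic lines, a log2 difference of 0.76 ± 0.30. Cd44 averaged 322 ± 93.7 CPM over dysplastic lines, against 191 ± 89.0 CPM over non-dysplastic lines, also with 0.76 ± 0.32. The groups overlapped for every gene, where 1.83% of all genes were separated as higher and 1.12% as lower in dysplastic lines. Muc6 and Cftr stood at an unadjusted p under 0.05 in edgeR's test, as did 5.91% of all genes, and DESeq2 and limma-voom called none of the 8, with 1.16% and 1.14% of all genes called. Without line 794 the log2 fold changes were 0.40 for Cftr, 0.52 for Aqp5, 0.50 for Muc6 and 0.64 for Cd44. Muc6 was lowest without line 565, at 0.45, Cd44 ran from 0.51 without line 1270 to 1.13 without line 650, and Aqp5 was 0.81 without line 565. The median over the 8 genes was 0.67, and over all tested genes -0.017. All 4 dysplastic lines had between 317 and 658 CPM of Xist, while the non-dysplastic lines held 0.65 CPM (line 650), 672 CPM (line 1270), 0.57 CPM (line 300) and 448 CPM (line 1269); its part in these values was not tested.

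The dysplasia difference was also taken within each genotype. Among KO lines, Muc6, Clu, Cd44, Aqp5 and Cftr lay higher in both dysplastic lines than in both non-dysplastic lines, 5 of the 8 genes, where 15.8% of all genes were separated as higher and 16.0% as lower. This order is of summed lines, and single libraries of the 2 sides overlapped for each of the 5 genes. Library 3 of line 801, for example, held 59.4 CPM of Muc6, and library 1 of line 650 held 76.1 CPM. The log2 fold changes were 3.33 ± 1.01 for Cftr, 2.28 ± 0.80 for Aqp5, 1.43 ± 0.43 for Muc6, 1.42 ± 0.46 for Cd44 and 0.52 ± 0.33 for Clu (SE, 2 lines against 2). Not one passed edgeR's test, with adjusted p from 0.61 to 0.99 over the 8 genes and 0.0% of all genes called, though Muc6, Cd44, Aqp5 and Cftr stood at an unadjusted p under 0.05, as did 7.54% of all genes. DESeq2 and limma-voom called none of the 8, with 1.46% and 2.01% of all genes called. At an unadjusted p under 0.05 DESeq2 had 5 of the 8 (1265 of 13476 genes) and limma-voom 5 (1697 of 12671 genes). The adjusted p was 0.057 for Muc6 by DESeq2 and 0.052 for Cd44 by limma-voom. Without line 794, leaving line 801 against lines 650 and 1270, the values were 0.79 for Cftr, 0.73 for Aqp5, 0.92 for Muc6, 1.18 for Cd44 and 0.64 for Clu. Without line 1270, the lowest line for Cd44 and Clu, these 2 genes were at 0.90 and 0.23, and without line 650 at 2.16 and 0.84. Muc6 was at 1.54 without line 1270. That line was the only KO line made ex vivo, so dysplasia and the way of knockout cannot be fully told apart within KO lines. Among WT lines no gene of the 8 was separated (14.4% of all genes were higher and 11.3% lower), and 0 passed edgeR's test, where 0.0% of all genes did. At an unadjusted p under 0.05 edgeR gave 0 of the 8 and 1.16% of all genes there, and DESeq2 and limma-voom called 0 of the 8 with 0.0297% and 0.0% of all genes. The median log2 fold change of the 8 genes was 0.046 in WT lines and 1.30 in KO lines.

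Whether the dysplasia difference was unequal between KO and WT lines was tested as an interaction. No gene of the 8 passed (edgeR adjusted p 1.00 for each, 0.0% of all genes called), and neither DESeq2 nor limma-voom called any gene. Cftr had the largest difference of log2 fold changes, 3.32 ± 1.34 (SE), and without line 794 this was 0.78. It was the single gene of the 8 at an unadjusted p under 0.05 in edgeR's test, where 1.79% of all genes stood, while DESeq2 had 4 of the 8 there (412 of 13476 genes) and limma-voom 2 (642 of 12671 genes). The difference for Muc6 was 1.35 ± 0.60, with 0.83 without line 794 as its lowest value. That for Cd44 was 1.31 ± 0.64, and it was lowest without line 1269 or line 1270, at 0.77 and 0.78, and highest without line 650, at 2.06.

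**Figure D2:**
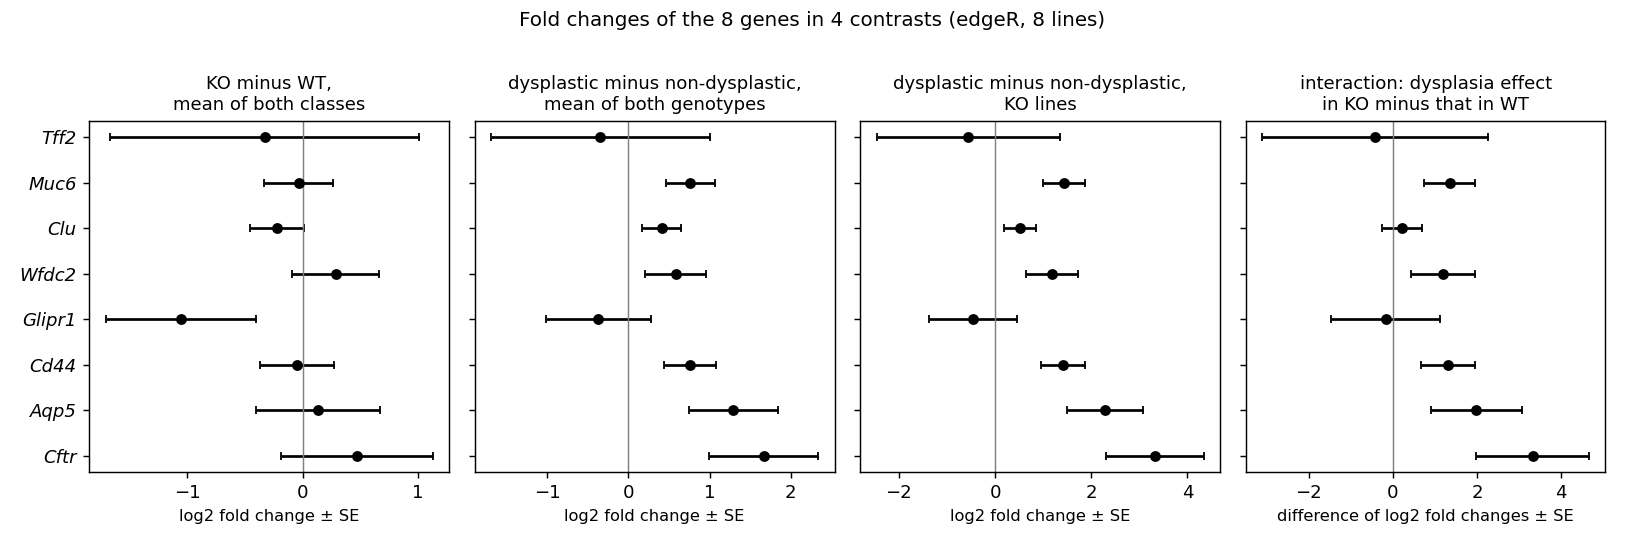
Log2 fold change ± SE (horizontal axis) of the 8 genes in 4 contrasts from edgeR's fit of the 8 lines. The intervals in the KO against WT panel lie around 0 except that of Glipr1 (-1.06 ± 0.65), and the values for Cftr, Aqp5, Muc6 and Cd44 are positive in the dysplasia and interaction panels, with none past the threshold.

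The ex vivo KO line 1270 and the in vivo KO line 650, both non-dysplastic, were 1 line each, and their spread was assumed to be that of the other groups. Xist was at 672 CPM in line 1270 and 0.65 CPM in line 650, so the way of knockout cannot be told apart from that difference. Cd44 measured 87.1 CPM in line 1270 and 204 CPM in line 650, a log2 fold change of -1.24 ± 0.47 (SE), and Tff2 42.4 CPM in line 1270 and 998 CPM in line 650, -4.57 ± 2.76. Of the 8 genes, 0 passed edgeR's test with a mean for each of the 5 groups (0.0% of all genes did), with adjusted p from 0.70 to 0.96. At an unadjusted p under 0.05 in that fit stood Cd44 alone, with 967 of 14057 genes (6.88%) in all.

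Line 794 was described further because it led 5 of the 8 genes, with no test, since it was picked for its values. Relative to the median of the other 7 lines its level was 10.6 times as high for Cftr, 4.82 times for Aqp5, 2.80 times for Tff2, 2.63 times for Muc6, 2.61 times for Wfdc2 and 2.03 times for Cd44, and it was 0.977 times that median for Clu and 0.119 times for Glipr1. For Aqp5 and Cftr all 3 of its libraries lay above all libraries of the other lines, as for 4.07% of tested genes, and for Glipr1 all 3 lay below, as for 3.13%. The pit cell markers Gkn1, Gkn2, Muc5ac, Psca and Tff1 summed to 4645 CPM in line 794, 1312 CPM in line 1270 and 110 to 509 CPM in the other 6 lines. Gkn1, a gastrokine secreted by pit cells, was at 3730 CPM in line 794 and 22.2 to 466 CPM in the other lines. Not all 5 markers peaked there: Gkn2 was at 387 CPM in line 794 and 420 CPM in line 1270, Psca at 71.1 CPM in line 794 and 53.9 to 267 CPM in the other lines, and Tff1, the trefoil peptide of pit cells, at most 0.43 CPM in every line. The Gkn1 and Gkn2 levels of line 1270 were uneven between its 2 libraries, the higher of which held 1038 and 944 CPM. Chief cell markers summed to 55.7 CPM in line 794, 1007 CPM in line 1270, 576 CPM in line 300 and 48.6 to 138 CPM in the other 5 lines. The part of these other cell type markers in the levels of the 8 genes was not tested.

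A further 15 genes of neck cells and SPEM had been listed, of which all were tested and 0 passed edgeR's test in any of the 7 comparisons, where 0.0% of all tested genes did. Their median log2 fold change was 0.18 for KO against WT and 0.098 for dysplastic against non-dysplastic lines. The highest 4 were Gkn3, a gastrokine of mouse neck cells, the mucin Muc1, the immunoglobulin transporter Pigr, and Dmbt1, a secreted scavenger receptor. Gkn3 measured 3265, 1710, 1853 and 1031 CPM in KO lines 794, 801, 650 and 1270, against 2483, 1735, 3071 and 438 CPM in WT lines 565, 752, 300 and 1269, its lowest line being that lowest in Tff2. Dmbt1 was likewise lowest in line 1269, at 200 CPM, and lay between 595 and 2202 CPM in the other lines. Pigr was lowest in line 794, at 389 CPM, and highest in line 650, at 2356 CPM. Chosen after their values were seen, Olfm4, a secreted glycoprotein of crypt stem cells in the intestine, was at 159 CPM in line 794 and at most 1.01 CPM elsewhere, and Bpifb1, a secreted airway and mucosal protein, at 235 CPM in line 794 and 3.30 to 66.0 CPM elsewhere. Agr2, which folds mucins, was at 1805 CPM in line 794 and 92.6 CPM in line 1269. Gif, the intrinsic factor made by mouse chief cells, was lowest in line 794, at 2.80 CPM, and highest in line 1270, at 613 CPM. A4gnt, a glycosyltransferase of gland mucin, was also highest in line 1270, at 68.1 CPM, with 7.09 CPM in line 794. Line 1270 was uneven in both genes, its higher library holding 1182 CPM of Gif and 121 CPM of A4gnt.

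**Figure D3:**
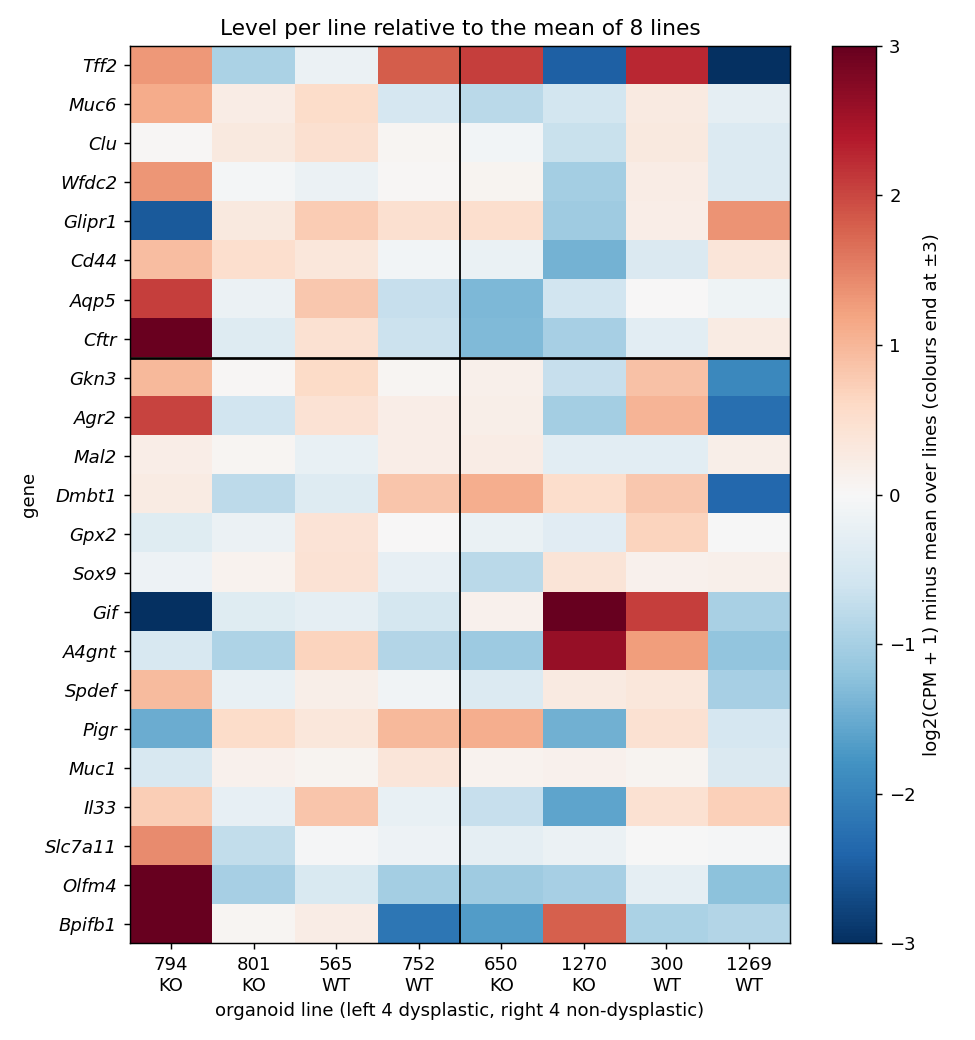
Level of the 8 genes (above the black line) and of 15 other neck cell and SPEM genes (below it) in each organoid line, as log2(CPM + 1) minus the mean over the 8 lines, with colours ending at ±3. Line 794 is red for Cftr, Aqp5, Tff2, Wfdc2, Muc6, Cd44, Olfm4, Bpifb1, Agr2 and Slc7a11, among others, and blue for Glipr1, Gif and Pigr, and line 1269 is blue for Tff2, Agr2, Dmbt1 and Gkn3.

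The genes most like each of the 8 in pattern over the 8 lines were taken as those with the smallest root mean square difference of line-centred log2(CPM + 1) among 10717 genes, as a description. Cftr lay nearest to Kif5c (0.28), Aqp5 (0.42) and Spry4 (0.47), so that Aqp5 was among the nearest 3 genes to Cftr. Aqp5 lay nearest to Etv5 (0.39), Prss16 (0.41) and Ror2 (0.41), and Glipr1 to Dscaml1 (0.40), Ddit4l (0.47) and Psapl1 (0.48). For Tff2 the nearest were Otop3 (0.84), Sult1d1 (0.87) and Gm15816 (0.98), at distances that exceed those of the other 7. Wfdc2 lay nearest to Ctsh (0.13), Rasa3 (0.16) and Dusp4 (0.18), Muc6 to Slc5a9 (0.19), Nr4a1 (0.24) and Hpdl (0.27), Cd44 to Gmpr (0.16), Sp6 (0.21) and Ptpre (0.23), and Clu to Parp3 (0.14), Krt7 (0.17) and Arhgef3 (0.18). Ranked by Pearson correlation in place of this distance, at most 1 of the 3 genes was kept for any of the 8.

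Short and long transcripts of the 8 genes behaved differently between sister libraries. In lines 794, 801, 565, 752, 650 and 300 the last-numbered library was set against the mean of its sister libraries. Tff2, with a longest coding transcript of 584 bases, was higher in the last library in 6 of 6 lines, at a median ratio of 2.14, as were Wfdc2 (849 bases, 2.07) and Glipr1 (1183 bases, 2.04). Muc6, at 8757 bases, was lower in 6 of 6 lines, at a median of 0.59, while Cftr (6303 bases) and Cd44 (5614 bases) were each higher in 1 line only, line 650, with medians of 0.47 and 0.84. Aqp5 (1797 bases) and Clu (1810 bases) had medians of 1.06 and 1.02. Over 12356 genes the rank correlation of this log ratio with transcript length ran from -0.65 to -0.49 in these 6 lines, and was -0.095 in line 1270 and 0.048 in line 1269; genes are not independent replicates, so no p is given. Without the 6 libraries 0 of the 8 genes passed edgeR's test, as with them, but fold changes moved: for dysplasia in KO lines, Tff2 had a log2 fold change of -1.10 without them, against -0.56 with them, and Glipr1 -0.016 without them, against -0.46 with them.

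**Figure D4:**
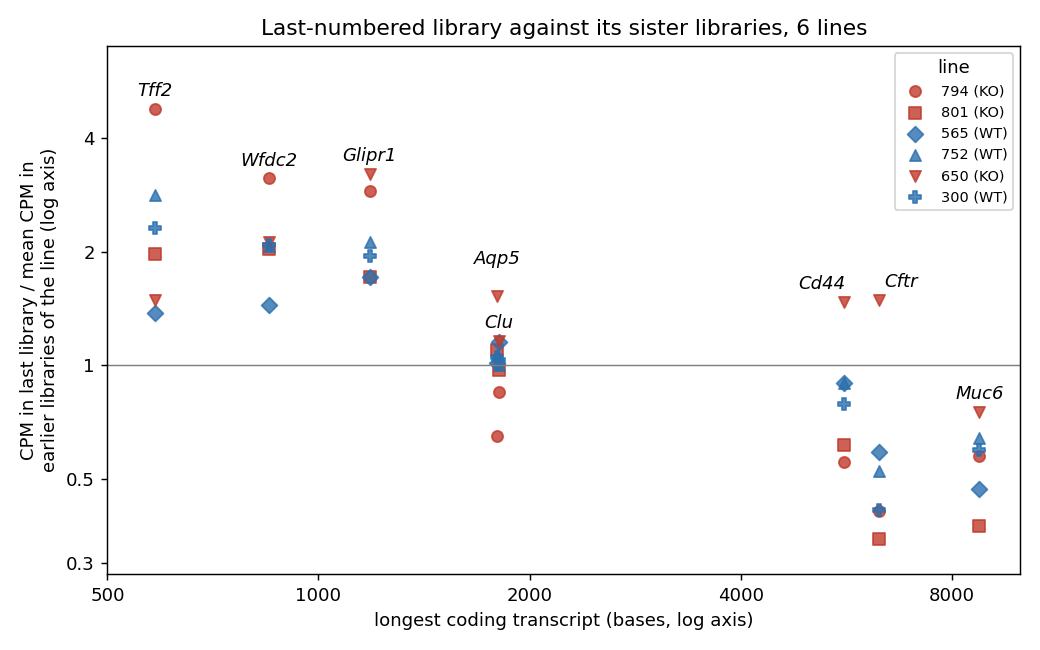
Ratio of CPM in the last-numbered library to the mean of its sister libraries (vertical, log axis) against the length of the longest coding transcript in bases (horizontal, log axis) for the 8 genes in 6 lines. The short genes Tff2, Wfdc2 and Glipr1 lie above 1 in every line shown and Muc6 lies below 1 in every line shown.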

How the data were processed

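The authors used STAR 2.5 and bcl2fastq with mouse build mm9, per the submitters' processing notes, with the annotation, counting tool and strand setting not given in the sources used here. Overlapping and antisense genes therefore cannot be told apart. The deposited table gives unnormalized read counts for each gene symbol. Counts of the libraries of a line were summed, since libraries sharing a title number share all labels. No pair of sister libraries agreed within sampling noise (smallest chi-square per degree of freedom 5.84). The lowest count of any of the 8 genes in a library was 79, and counts cover counting error only.

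Tests used R 4.3.3 and edgeR 4.0.16: filterByExpr, TMM scaling and a robust quasi-likelihood fit with 1 mean per genotype and dysplasia class (4 residual degrees of freedom), with Benjamini-Hochberg adjustment over all genes tested and a threshold of 0.05. The SE given with an edgeR fold change was back-calculated as its absolute value divided by the square root of the test's F statistic. DESeq2 1.42.0 on line sums and limma 3.58.1 (voom on libraries, lines as correlated blocks, correlation 0.22) served as alternatives, beside RLE scaling, no filter, 5 group means, leaving out each line, and leaving out the 6 libraries that stood apart. Simulated data were used only to try edgeR's KO against WT contrast and, with a planted gene, the ranking of like genes. DESeq2, limma-voom and the other contrasts were not tried in this way. CPM are TMM-scaled, log2(CPM + 1) takes a pseudocount of 1, and transcript lengths and cell type markers served for description.

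The 8 genes, the 19 gene lists (109 genes tested, 0 calls over the 7 comparisons) and the tests were chosen with earlier results of these data known. The rule for named genes took all 8, Trp53, for each of them the 3 most like genes, and from each list up to 4 genes with the highest mean CPM. Gkn3, Muc1, Pigr and Dmbt1 follow that rule. Xist, Slc26a9, Olfm4, Bpifb1, Agr2, Gif, A4gnt and the low or absent markers named were chosen after their values were seen.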

Additional observations from a re-analysis of the deposited data

Results flagged for a closer look

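In 32 groups of 4 lines (the 8 genes in KO, WT, dysplastic and non-dysplastic lines), 2 groups held a line far from the other 3, judged by its gap to the nearest line as a share of the group's range on the log2(CPM + 1) scale, against Dixon's 95% critical value for 4 samples. Chance gives such a line in about 1 in 20 groups, and 2 of 32 is near that share. Each line entered 2 groups per gene, so the groups are not independent, and no conclusion is drawn. Both far lines were line 794 among the dysplastic lines. For Wfdc2 the share was 0.866, with 2405 CPM in line 794 and 922, 845 and 973 CPM in lines 801, 565 and 752. For Glipr1 it was 0.857, with 19.7 CPM in line 794 and 143, 199 and 165 CPM in lines 801, 565 and 752.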

How the results depend on the processing

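The count of the 8 genes called was 0 in each of the 7 comparisons under all 15 alternatives, which says little of stability because edgeR called no gene at all in the fit reported, and over 480 refits of 32 fold changes the lowest adjusted p was 0.052, that of Cd44 for dysplasia in KO lines by limma-voom. Some directions turned. Aqp5 in KO against WT was -0.077 by limma-voom, and -0.075 with a replicate block added. For dysplasia over both genotypes Tff2 was 0.32 with 5 group means, 1.11 by limma-voom and 0.65 with the replicate block, and within KO lines 0.79, 0.49 and 0.013 under the same 3 settings. In the interaction Tff2 was 0.92 and Glipr1 0.037 with 5 group means, and Glipr1 0.44 without the 6 libraries that stood apart. The causes were not tested. Leaving out each line in turn, the log2 fold change for KO against WT ran from -2.15 to 2.29 for Tff2, -0.29 to 0.28 for Muc6, -0.42 to 0.20 for Cd44, -0.14 to 0.55 for Wfdc2, -0.64 to 0.62 for Aqp5 and -0.80 to 0.90 for Cftr. For dysplasia it ran from -1.12 to 2.27 for Tff2 and -1.39 to 0.15 for Glipr1, within KO lines from -2.11 to 3.07 for Tff2 and -2.51 to 0.57 for Glipr1, and in the interaction from -5.67 to 3.21 for Tff2, -0.17 to 0.53 for Clu and -2.23 to 0.85 for Glipr1. Where a class kept 1 line, that line was assumed to vary like the others. Replicate numbers only name libraries within a line: 32 of 62 same-numbered pairs deviated together with a correlation above 0.1 (range -0.89 to 0.87), so they were not treated as pairs, and the replicate block called 0 of the 8 genes. CPM of the plain total moved 4 of 64 levels beyond the spread between libraries, Clu to 13403 in line 300 and 14957 in line 801, Aqp5 to 171 in line 300 and Cftr to 23.0 in line 1270. Each combination of genotype and dysplasia had 2 lines, and SEs in the interaction ran from 0.47 (Clu) to 2.69 (Tff2) on the log2 scale; how depth and the number of lines each limit these was not tested.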
